A study of Saccharomyces cerevisiae with 142 samples.

Results

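The 36 genes described here encode nuclear-coded enzymes and subunits of the mitochondrial respiratory chain and the mitochondrial ATP synthase of budding yeast, Saccharomyces cerevisiae. They were chosen by gene symbol from the known make-up of these complexes, by a rule that uses no measured value though it was drawn up with earlier results of these data known, and are 36 of the 5449 named genes read by the expression arrays. They comprise 4 subunits of succinate dehydrogenase, which is complex II (SDH1 to SDH4), 3 single-protein NADH dehydrogenases (NDI1, NDE1 and NDE2) and 9 subunits of the cytochrome bc1 complex, which is complex III (COR1, QCR2, QCR6 to QCR10, CYT1 and RIP1). The others are cytochrome c itself (CYC1), 8 subunits of cytochrome c oxidase, which is complex IV (COX4, COX5A, COX6 to COX9, COX12 and COX13), and 11 subunits of ATP synthase. Each member was read by 1 probe set, so no member rests on a choice between probes.

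Yeast has no proton-pumping NADH dehydrogenase complex. Ndi1 takes electrons from NADH inside the mitochondrial matrix, Nde1 and Nde2 take them from NADH on the outer face of the inner membrane, and succinate dehydrogenase feeds in electrons from succinate while serving as an enzyme of the citric acid cycle. The electrons pass through complex III and cytochrome c to complex IV, which reduces oxygen, and the proton gradient that complexes III and IV build up drives ATP synthase. Genes of this pathway are known to be held down on glucose and switched on by the Hap2/3/4/5 activator, whose regulatory subunit is Hap4.

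The study followed synchronized cultures over time on 142 one-colour arrays in 9 time courses. The wild type at 30 °C was BF264-15DU MATa bar1, grown in YEP dextrose with 1 M sorbitol and synchronized in G1 by elutriation, which collects cells of small size, and gave 2 courses of 14 arrays each. In the same medium, temperature and synchrony, the cyclin mutant was BF264-15DU MATa carrying clb1::URA3 and clb2::LEU2, then clb3::TRP1 with clb4::HIS2, then clb5::ARG4 with clb6::APE1, together with a GAL1-CLB1:LEU2 construct. It lacks the B-type cyclins when the GAL1 promoter is off, its label lists no bar1, and it gave 2 courses of 15 arrays. The cdc20 mutant, also labelled as grown in this medium at 30 °C and synchronized in G1 by elutriation, was BF264-15DU MATa bar1 with cdc20::LEU2, with Pgall-CDC20::ADE2 and with CFP-TUB1::URA3. Cdc20 activates the anaphase-promoting complex, and the 2 cdc20 courses had 14 arrays (40 to 300 min) and 18 arrays (20 to 360 min). The wild type at 37 °C was BF264-15DU mat a bar1, grown at 25 °C in YEPD without sorbitol, elutriated for small daughter cells and shifted to 37 °C at time 0, in 1 course of 15 arrays. The cdc14-3 and cdc15-2 strains were BF264-15D MATa bar1 with temperature-sensitive alleles of a phosphatase and a kinase of mitotic exit. By their labels they grew in YEP with 2% dextrose, were held in G1 by alpha factor, a mating pheromone, at 25 °C and then let go at 37 °C. They gave 1 course each, of 21 arrays (0 to 240 min) and 16 arrays (0 to 180 min). The cdc14-3 and cdc15-2 strains therefore share synchrony and medium, and differ from the 37 °C wild type in synchrony as well as in genotype. The 37 °C wild type differs from the 30 °C wild type in medium and in the shift from 25 °C as well as in temperature, while both were elutriated. The labels also describe RNA extraction differently for the 30 °C groups, the 37 °C wild type and the arrest mutants, and these differences and the group cannot be told apart.

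The arrays of all groups other than cdc14-3 and cdc15-2 are labelled as reanalyzed. All values below are log2 of the deposited probe-set intensities, and array medians of the linear values ran from 1056 to 1362. The column block of the second 30 °C wild-type course was displaced: its mean profile over genes correlated with that of the first course at r = 0.0461 as deposited and at 0.996 once its values were moved up 1 row, while other courses correlated with each other at 0.889 to 0.987. It was used after the move, and the effect of using it as deposited is given with the other settings. Checks of the labels gave CDC20 late levels of 8.89 and 8.94 in the cdc20 courses against 9.77 and 9.63 in the 30 °C wild type. CLB2 was at 6.999 and 7.006 in the cyclin mutant against 10.8 and 10.4, and CLB3 and CLB4 were also lower there. CLB5 was at 10.9 and 10.4 against 9.89 and 10.03, which does not follow its label, and whether its probe set lies in the disrupted part was not tested. For cdc14-3 and cdc15-2 an expression level checks nothing. The median levels of 4 MATa marker genes lay between 11.9 and 14.1 in every course except those of the cyclin mutant, where they lay between 10.1 and 12.0. The TDH1 control, whose 3′ probe set was read against its 5′ one to follow RNA quality, drifted within courses. The difference ranged most in the second cdc20 course, with 0.79 at 20 min, then 3.41 at 100 min and finally 1.27 at 360 min.

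Members moved over time in every group, but few moved far. The most frequent movers were NDE2, NDI1, SDH1 and SDH2, dehydrogenase genes at the entry of the chain, and the largest range in each group belonged to NDE2, NDI1 or SDH1. Of the other dehydrogenase genes, NDE1 was called in no group and SDH3 and SDH4 only in cdc20, by the rule given next. Most subunits of complexes III, IV and ATP synthase stayed within a narrow band. Change over time was tested with a limma F-test of a natural spline (5 degrees of freedom) that gave each course its own intercept, and a gene was called at an adjusted p below 0.05 with a fitted range of at least 1 log2 unit. The successive samples of a course come from 1 culture, replicates are the courses the labels number, and p-values measure only the spread between these samples. In a bulk sample, fewer cells with a transcript and less transcript per cell cannot be told apart.

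In the 30 °C wild type 3 members were called, NDE2 with a fitted range of 2.05 (adjusted p = 1.48e-06), SDH1 with 1.15 (adjusted p = 0.00109) and COX9 with 1.13 (adjusted p = 1.89e-07), beside 36% of all genes. In the cyclin mutant 3 were called, NDE2 with 2.25, QCR10 with 1.21 and COX7 with 1.00, beside 37.4% of all genes. In cdc20 cells 10 were called, beside 56.1% of all genes, and all 4 succinate dehydrogenase subunits were among them: SDH1 had a range of 2.61 (adjusted p = 8.18e-12), SDH4 of 1.97, SDH2 of 1.51 and SDH3 of 1.29. The other 6 were NDI1, COX7, QCR6, ATP14, ATP2 and NDE2, with ranges of 1.78, 1.20, 1.13, 1.09, 1.06 and 1.04.

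At 37 °C the wild type had 7 called members, beside 32.5% of all genes: NDI1 (1.87), NDE2 (1.58), QCR6 (1.47), COX13 (1.23), SDH2 (1.20), CYT1 (1.17) and COX7 (1.12), each with its fitted maximum at 15 min, the first sample. The cdc14-3 strain had 5, beside 22.7%, namely NDE2 (2.19), NDI1 (2.07), SDH2 (1.09), ATP3 (1.02) and SDH1 (1.01). The cdc15-2 strain also had 5, beside 18.9%, namely NDI1 (2.05), NDE2 (1.68), SDH1 (1.20), SDH2 (1.17) and CYT1 (1.07). With samples before 30 min left out, 3 members were called in the wild type at 37 °C and 0 in each of cdc14-3 and cdc15-2. The share of all genes called in that setting is not given here, so the drop cannot be read as particular to the members.

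On the adjusted p alone, 36 members passed in the 30 °C wild type, the cyclin mutant and cdc14-3, beside 88.3%, 93.8% and 75.5% of all genes. In cdc20 and cdc15-2 34 passed, beside 96% and 69.5%, and in the 37 °C wild type 27, beside 76.3%. The median fitted range of the members was 0.61 in the 30 °C wild type and in cdc20, against 0.74 and 1.11 over all genes. It was 0.64 in cdc14-3 and 0.63 in cdc15-2, against 0.58 and 0.55. The steadiest members were ATP1, the alpha subunit of the catalytic head of ATP synthase, with ranges of 0.17 in the 30 °C wild type and 0.15 in the cyclin mutant. QCR9, a small subunit of complex III, had 0.25 in cdc20, and CYC1 had 0.19 in cdc14-3 and 0.20 in cdc15-2. ATP5 in the 37 °C wild type, with a range of 0.20, did not pass (adjusted p = 0.299), and neither did COX7 in cdc15-2, with 0.19 (adjusted p = 0.132).

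**Figure D1:**
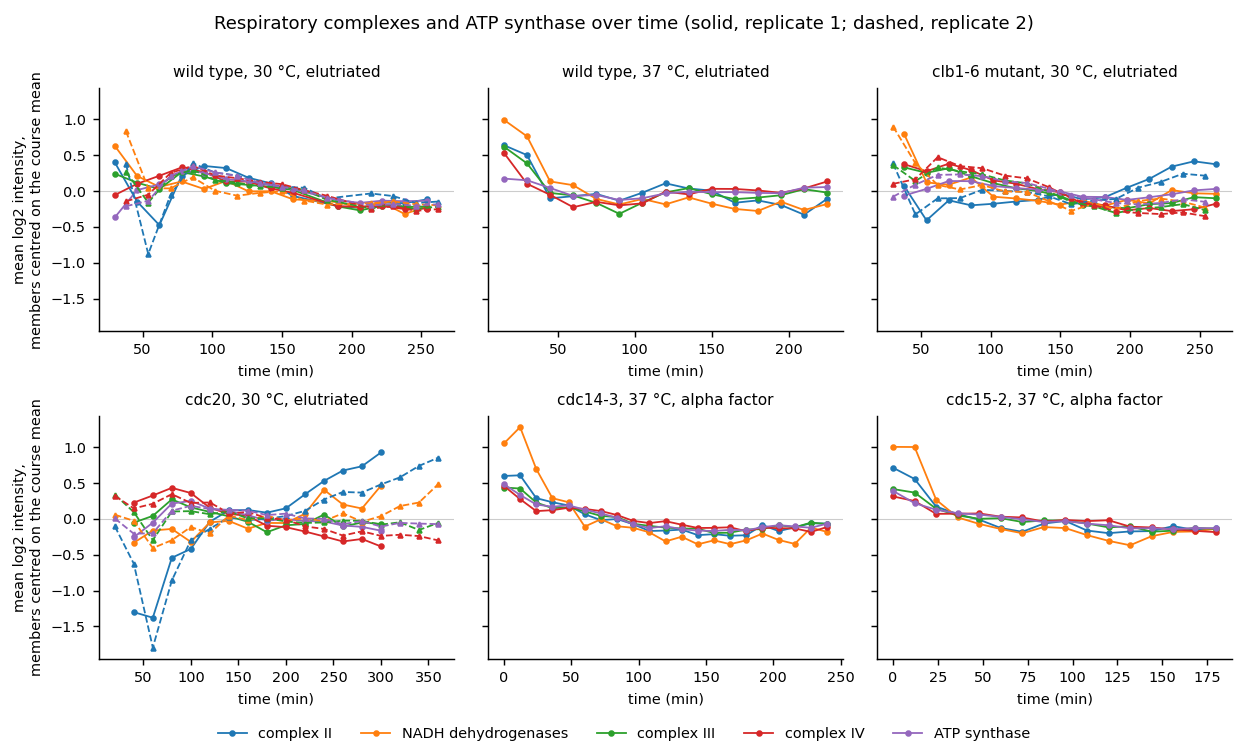
Mean log2 intensity of the members of each complex, each member centred on its own course mean, against time in minutes for the 6 groups (solid lines and circles, replicate 1; dashed lines and triangles, replicate 2). The complex II line of both cdc20 courses sits lowest at 60 min and is highest at or near the end, while the complex IV line declines slowly, and in cdc14-3 and cdc15-2 all 5 lines start high and lie closer together after the first samples.

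In the 30 °C wild type the subunits of complex IV and ATP synthase formed a shallow hump early in the course. The highest sample lay between 78 and 102 min for 10 of 11 ATP synthase genes in both courses and for 7 of 8 complex IV genes in both courses. The mean of the 11 ATP synthase genes was 12.4 at 30 min in the first course and 13.0 at 78 min, and 12.6 at 38 min in the second course and 13.1 at 86 min. Succinate dehydrogenase went the other way at the start: the mean of its 4 genes was lowest at 62 min (11.1) in one course and at 54 min (10.6) in the other.

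SDH1, the flavoprotein subunit that oxidizes succinate, showed this early trough most clearly. In the first 30 °C course it had a lowest value of 10.3 at 62 min, a median of 11.5 and a highest value of 11.8 at 110 min. In the second it had a lowest value of 9.82 at 54 min, a median of 11.5 and a highest value of 11.7 at 118 min. Both courses thus held a brief low of more than 1 log2 unit and then a plateau. NDE2, one of the external NADH dehydrogenases, started high and stayed low: in one course it was at 8.53 at 30 min and lowest at 206 min with 6.95. In the other it was at 9.71 at 38 min and lowest at 166 min with 6.96. It is a dim probe set, with a mean log2 intensity of 7.36 over all arrays, and the only member among the lowest 25% of genes by mean level.

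To compare groups, each course was reduced to 1 early value per gene, the mean up to 60 min, and 1 late value, the mean from 100 min on. Their difference and the late level were fitted with limma over the 9 courses with a mean per group, which leaves 3 residual degrees of freedom, and p-values were adjusted over all 5449 genes. In the 30 °C wild type 1 member rose and 4 fell, beside 20.3% of all genes called higher and 18.8% called lower (39.1% in all). ATP2, the catalytic beta subunit of ATP synthase, rose by 0.40 ± 0.11 (SE, adjusted p = 0.0305). NDE2 fell by 1.35 ± 0.27 (adjusted p = 0.0131), COX13 by 0.42 ± 0.11 (adjusted p = 0.0276), QCR7 by 0.42 ± 0.12 (adjusted p = 0.0316) and QCR10 by 0.39 ± 0.12 (adjusted p = 0.0404). SDH1 differed by 0.55 and COX9 by 0.42 without passing (adjusted p = 0.0700 and 0.122). The median over the 36 members was -0.03 against 0.04 over all genes. Without the first 30 °C wild-type course 1 member was called, and without the second 0.

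In the cdc20 mutant all 4 succinate dehydrogenase subunits, the internal NADH dehydrogenase NDI1 and the ATP synthase subunits ATP1 and ATP2 rose from early to late, while COX6, COX7, COX12 and COX13 of complex IV and QCR6 and QCR10 of complex III fell. Of the 36 members 9 rose and 6 fell, beside 20.7% of all genes called higher and 21.2% called lower (41.9% in all), so the share of members called was close to that of all genes. By complex, 4 of 4 complex II genes, 1 of 3 NADH dehydrogenases, 2 of 9 complex III genes and 2 of 11 ATP synthase genes rose, and 4 of 8 complex IV genes and 2 of 9 complex III genes fell. The split of 9 higher to 6 lower became 11 to 5 after quantile normalization and 11 to 3 after centring arrays on their medians.

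SDH1 (YKL148C) had the largest swing of any member. In the first cdc20 course it ran from 9.07 at 60 min through a median of 11 to 12.3 at 300 min, the last sample, which is 9.41-fold. In the second it ran from 8.89 at 60 min through a median of 11.5 to 12.6 at 360 min, again the last sample, which is 13.1-fold, after a first value of 11.2 at 20 min. The low at 60 min thus appeared in both courses, and in the second it was preceded by a higher value that the first course, which starts at 40 min, did not sample. The late minus early change of SDH1 was 1.74 ± 0.20 (SE, adjusted p = 0.00231), or 3.33-fold.

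The other 3 subunits followed. SDH2 (YLL041C), the iron-sulfur subunit that passes electrons on, ran from 10.1 at 40 min to 12.0 at 300 min and from 9.89 at 60 min to 12.4 at 360 min, and rose by 1.12 ± 0.11 (adjusted p = 0.00173). SDH3 (YKL141W), a membrane anchor, ran from 11 at 40 min to 12.9 at 300 min and from 11.04 at 60 min to 12.9 at 340 min, and rose by 1.23 ± 0.17 (adjusted p = 0.00344). SDH4 (YDR178W), the other anchor, ran from 10.3 at 60 min to 13.0 at 300 min and from 10.5 at 60 min to 13.2 at 340 min, and rose by 1.35 ± 0.28 (adjusted p = 0.0114). In each of these 6 runs the lowest sample fell between 40 and 60 min and the highest in the last or next to last sample. Yeast holds paralogs of SDH1, SDH3 and SDH4, and hybridisation of their transcripts to these probe sets was not tested.

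NDI1 (YML120C) moved with succinate dehydrogenase. It ran from 7.96 at 40 min to 9.96 at 300 min and from 7.93 at 60 min to 10.2 at 360 min, and rose by 0.88 ± 0.14 (adjusted p = 0.0058). The other NADH dehydrogenases did not pass, with changes of 0.03 for NDE1 and -0.19 for NDE2. ATP2 rose by 0.94 ± 0.11 (adjusted p = 0.00232), from 12.4 at 40 min to 13.7 at 240 min and from 12.3 at 60 min to 13.8 at 360 min, and ATP1 rose by 0.45 ± 0.11 (adjusted p = 0.0179). In complex III the Rieske iron-sulfur protein RIP1 rose by 0.46 ± 0.12 (adjusted p = 0.0237) and the core protein QCR2 by 0.36 ± 0.10 (adjusted p = 0.0343).

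The 6 members that fell are subunits of complexes III and IV. COX7, a subunit of complex IV, fell by 0.62 ± 0.10 (adjusted p = 0.00619), running from 13.4 at 80 min to 12.1 at 300 min and from 13.1 at 80 min to 11.7 at 360 min. COX13 fell by 0.57 ± 0.11 (adjusted p = 0.00988) and COX6 by 0.51 ± 0.11 (adjusted p = 0.0135). COX12, QCR6 and QCR10 fell by 0.39, 0.42 and 0.40 (adjusted p = 0.0276, 0.0316 and 0.0342). COX4, COX5A, COX8 and COX9 of complex IV did not pass. As means, complex II was at 10.2 at 60 min and 12.5 at 300 min in one course, and at 10.1 at 60 min and 12.7 at 360 min in the other. Complex IV went down over the same span, with 13.4 at 80 min and 12.6 at 300 min, then 13.1 at 80 min and 12.4 at 360 min in the second course. Across the arrays of each cdc20 course the 2 means correlated at -0.86 and -0.78, over 14 and 18 arrays of a single culture each, against 0.43 and 0.40 in the 30 °C wild type and -0.64 and -0.31 in the cyclin mutant.

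Without either cdc20 course the number of members called in cdc20 was 5, and without either 30 °C wild-type course 11. SDH1, SDH2, SDH3 and ATP2 kept their call in every fit that left out 1 course. The TDH1 3′ minus 5′ difference also had a higher late than early mean, 2.98 after 2.62 in the first course and 2.77 after 1.47 in the second. Within the courses it was highest at 80 min (3.70) and at 100 min (3.41). Its part in the late minus early changes was not tested. It was used as a covariate in the test of change over time, an alternative chosen after seeing the data. The fitted ranges there were 2.51 for SDH1, 1.60 for SDH2, 1.80 for SDH3, 2.01 for SDH4 and 1.82 for NDI1. Again 10 members were called, without NDE2 and ATP14 and with COX6 and COX13.

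**Figure D2:**
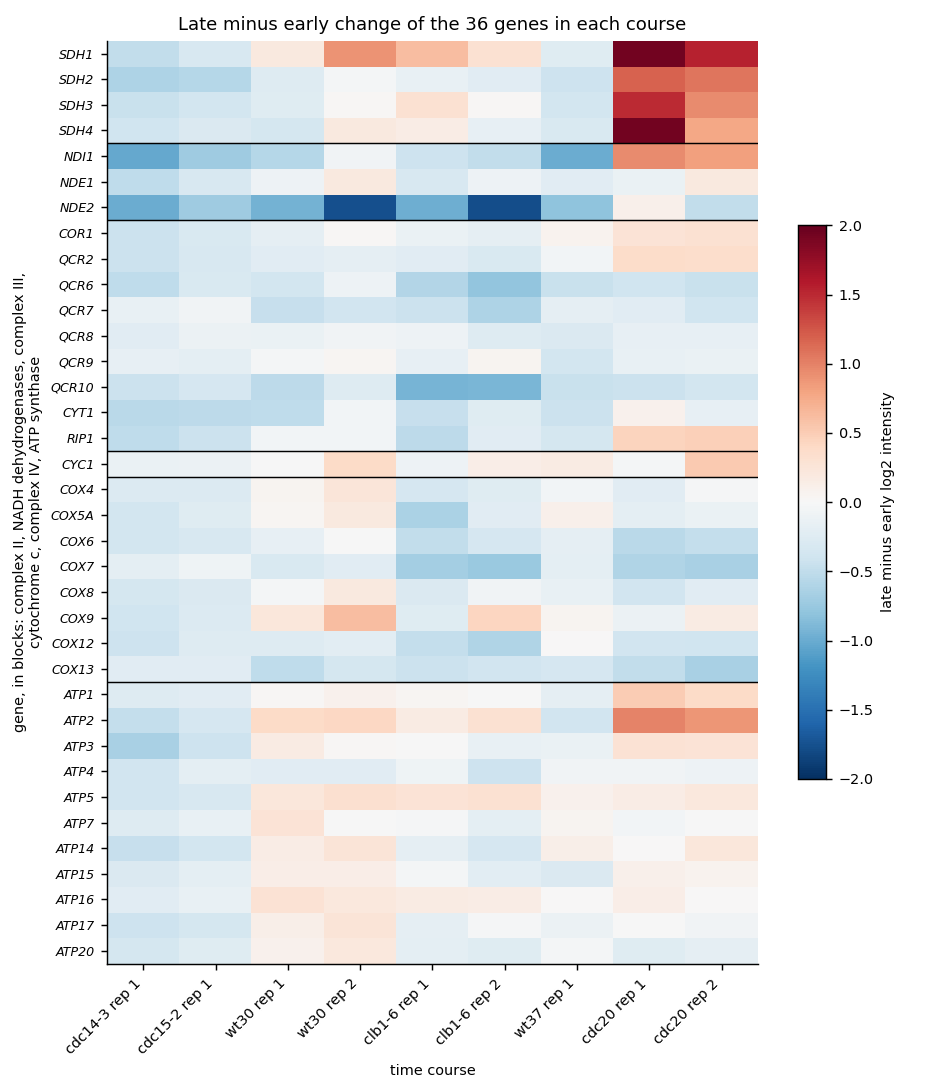
Late minus early change in log2 intensity (mean from 100 min on minus mean up to 60 min) for the 36 members, in rows ordered by complex, in each of the 9 courses, in columns; red is higher late, blue lower late, and the colour scale ends at 2 in each direction. SDH1 to SDH4, NDI1 and ATP2 are red in both cdc20 columns, and the cdc14-3 and cdc15-2 columns are blue throughout.

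The question whether the rise in cdc20 differed from the course of the wild type at 30 °C was tested directly, as the difference between the changes of the groups. It passed for 4 members, all of them dehydrogenase genes, and all higher in cdc20, beside 7.27% of all genes called higher and 8.48% called lower (15.7% in all). The difference was 1.19 ± 0.28 for SDH1 (SE, adjusted p = 0.0394), 1.27 ± 0.16 for SDH2 (adjusted p = 0.0152), 1.34 ± 0.24 for SDH3 (adjusted p = 0.0231) and 1.20 ± 0.20 for NDI1 (adjusted p = 0.0227). SDH4, with 1.43 ± 0.39, missed the threshold (adjusted p = 0.055), and its estimate was 0.86 without the first cdc20 course and 2.00 without the second, where it passed (adjusted p = 0.0474). Also short of it were QCR2 with 0.56 (adjusted p = 0.0507) and ATP2 with 0.54 (adjusted p = 0.0599). The lowest differences, none of which passed, were in complex IV: COX6 with -0.43, COX9 with -0.40 and COX8 with -0.38, and all 8 complex IV genes lay below 0. Over the 36 members the median was -0.03, as over all genes.

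These 4 calls rest on few courses. The counts in the settings below stand without the share of all genes called, so they cannot be read as particular to the members. Without either 30 °C wild-type course or without the first cdc20 course 0 members were called, and without the second cdc20 course 3 were, SDH2, SDH3 and SDH4. With late samples only to 180 min 0 were called, and with late samples to 260 min 2, SDH2 and SDH3. The early window also matters, since the trough of the first 30 °C wild-type course lay at 62 min and those of cdc20 at 60 min. With the 1 sample of each course between 54 and 62 min as the early value, an alternative chosen after seeing the data, 9 members were called, with differences of 1.07 for SDH1 (adjusted p = 0.044), 1.14 for SDH2 (adjusted p = 0.0432), 1.17 for SDH3 (adjusted p = 0.0226), 1.37 for SDH4 (adjusted p = 0.0174) and 0.87 for NDI1 (adjusted p = 0.0342). In those samples the SDH1 level was 10.3 and 9.82 in the 30 °C wild type, 10.6 and 10.9 in cyclin mutant cells, and 9.07 and 8.89 for cdc20. The cdc20 values lay below all other courses at that time.

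**Figure D3:**
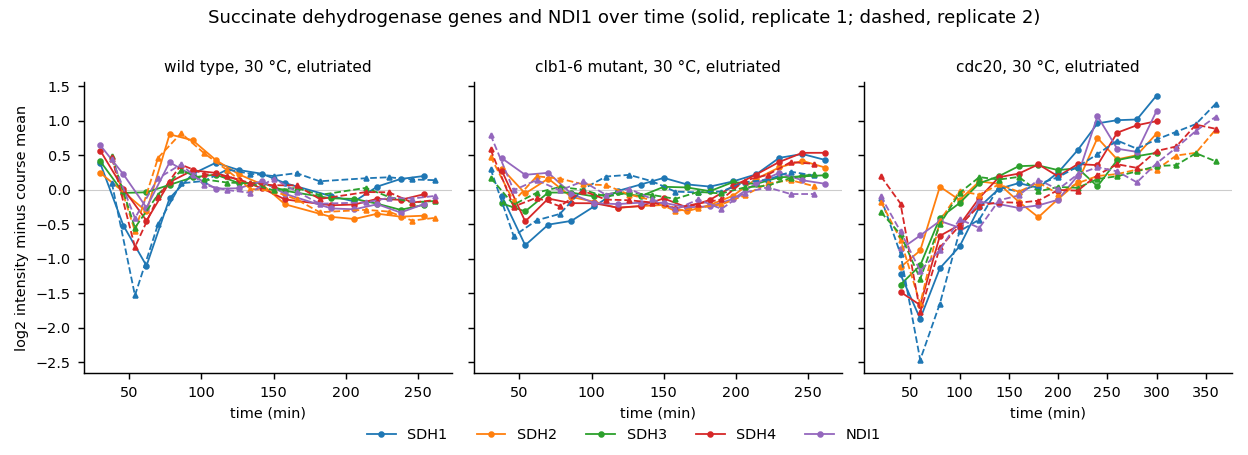
SDH1 to SDH4 and NDI1 as log2 intensity minus the mean of the gene in that course, against time in minutes, in the 30 °C wild type, the cyclin mutant and cdc20 (solid, replicate 1; dashed, replicate 2). SDH1 has a low between 46 and 62 min in all 6 courses, and in the cdc20 panel it then climbs to its highest point in the last sample of each course.

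At late times the level of the 36 members in cdc20 differed from the 30 °C wild type for 8 members, 6 higher and 2 lower, beside 26% of all genes called higher and 16.3% lower (42.3% in all). The membrane anchors of succinate dehydrogenase were the highest: SDH4 had late means of 12.35 and 12.45 in the cdc20 courses against 11.65 and 11.58 (difference 0.79 ± 0.10, SE, adjusted p = 0.00158), and SDH3 had 12.6 and 12.5 against 11.9 and 11.8 (0.71 ± 0.10, adjusted p = 0.00223). The groups did not overlap for either, which adds nothing to calls made on the same values, and the share over all genes is not given here. The late level of SDH1 did not differ, with -0.01 (adjusted p = 0.96), while its early means were 9.39 and 10.2 in cdc20 against 11.3 and 10.6. COX12, COX6 and COX9 of complex IV were higher by 0.62 ± 0.15, 0.49 ± 0.12 and 0.44 ± 0.11 (adjusted p = 0.0146, 0.0189 and 0.0153), and ATP4, of the peripheral stalk of ATP synthase, by 0.36 ± 0.12 (adjusted p = 0.0455). The core proteins of complex III were lower, COR1 by -0.49 ± 0.15 (adjusted p = 0.0373) and QCR2 by -0.33 ± 0.11 (adjusted p = 0.0492). The median difference was 0.18 against 0.08 over all genes. The number called was 2 without either 30 °C wild-type course, 5 without the first cdc20 course and 12 without the second, and SDH3 and SDH4 kept their call in every such fit.

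In the cyclin mutant 3 of 9 complex III genes, 4 of 8 complex IV genes and NDE2 fell over the course, and 0 members were called higher. These are 8 of the 36 members, beside 12% of all genes called higher and 11.5% lower (23.5% in all). QCR10 fell by 0.93 ± 0.12 (SE, adjusted p = 0.00352), NDE2 by 1.37 ± 0.27 (adjusted p = 0.0163), COX7 by 0.72 ± 0.10 (adjusted p = 0.00561), QCR6 by 0.68 ± 0.12 (adjusted p = 0.0108) and COX12 by 0.54 ± 0.10 (adjusted p = 0.0146). QCR7, COX6 and COX13 fell by 0.52, 0.42 and 0.40 (adjusted p = 0.0223, 0.0407 and 0.0455).

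QCR10, a small subunit of complex III, ran from 12.7 at 38 min through a median of 11.8 to 11.5 at 198 min in one course, and from 12.6 at 62 min through 11.7 to 11.1 at 222 min in the other. COX7 ran from 13.1 at 38 min through a median of 12.5 to 12.1 at 230 min, and from 12.9 at 62 min through 12.3 to 11.8 at 222 min. Both genes were high in the early samples and lowest at 198 min or later in both courses. The largest positive changes, none of which passed, were 0.46 for SDH1, 0.29 for ATP5, of the stalk of ATP synthase, and 0.24 for ATP2. The median over members was -0.20 against 0.00 over all genes, with 28 of 36 below 0. The number called was 5 without either 30 °C wild-type course, 4 without the first cyclin mutant course and 1 without the second, and QCR10 was the only member kept in every such fit.

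The change in the cyclin mutant did not pass as different from that of the 30 °C wild type for any member by limma. Beside this, 0.991% of all genes were called higher and 1.38% lower (2.37% in all). The lowest differences were -0.54 for COX5A and for QCR10 and -0.46 for ATP14, the highest was 0.28 for SDH3, and 32 of 36 lay below 0. In late level 3 members were lower in the cyclin mutant and 0 were higher, beside 8.72% of all genes called higher and 6.63% lower (15.3% in all). RIP1 had late means of 11.8 and 12.1 against 12.7 and 12.5 (difference -0.63 ± 0.14, SE, adjusted p = 0.0224). COX5A had 12.2 and 12.3 against 12.7 and 12.7 (-0.45 ± 0.10, adjusted p = 0.0224), and COX4 had 12.5 and 12.4 against 12.8 and 12.8 (-0.37 ± 0.10, adjusted p = 0.0473). None of these 3 pairs of groups overlapped, which again adds nothing to calls made on the same values, and the share over all genes is not given here. The next members, without a call, were CYT1 with -0.55 and QCR10 with -0.48 (adjusted p = 0.0576 for QCR10), and the highest was QCR2 with 0.19. Without either 30 °C wild-type course or the first cyclin mutant course 0 were called, and without either cdc20 course 5.

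The MATa markers moved with these differences in the cyclin mutant: 4 of 4 fell over the course (median -2.05), and 4 of 4 were lower in late level than in the 30 °C wild type (median -1.70), with median levels of 10.1 to 12.0 by gene and course and none near the level of the dimmest genes. Their part in the result was not tested.

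The wild type at 37 °C and at 30 °C differed in late level for 12 members, 4 higher and 8 lower at 37 °C, beside 29.1% of all genes called higher and 22.3% lower (51.4% in all). The membrane anchors of succinate dehydrogenase were higher and its catalytic subunit lower. SDH4 was higher by 0.76 ± 0.12 (SE, adjusted p = 0.0022) and SDH3 by 0.65 (adjusted p = 0.00433), and SDH1 was lower, at 11.04 against 11.5 (-0.50, adjusted p = 0.048). COX6 and QCR7, a matrix-side subunit of complex III, were each higher by 0.54 (adjusted p = 0.0212 and 0.0286).

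The lower members included the catalytic subunit ATP2 and the core proteins of complex III. ATP2 was at 12.7 against 13.7 and 13.5 (-0.88 ± 0.13, adjusted p = 0.00161), and QCR2 at 11.3 against 12.1 and 12.3 (-0.86, adjusted p = 0.00212). COR1 was at 11.9 against 12.7 and 12.8 (-0.83, adjusted p = 0.00822) and NDE1 at 12.5 against 13.2 and 13.1 (-0.69, adjusted p = 0.00314). RIP1, ATP3 and NDI1 were lower by -0.54, -0.54 and -0.52 (adjusted p = 0.0299, 0.0114 and 0.0381). In every one of these the 37 °C course lay outside both 30 °C courses. This adds nothing to calls made on the same values, and the share over all genes is not given here. Subunits of the same complex thus lay on opposite sides, SDH3 and SDH4 against SDH1, and QCR7 against QCR2, COR1 and RIP1.

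The median over the 36 members was 0.02 as deposited, -0.02 after quantile normalization and -0.09 after centring arrays on their medians. The centring moved the median of all genes in this comparison from 0.07 to -0.04, so no direction holds for the members as a whole. The number called was 7 without the first 30 °C wild-type course and 6 without the second, and SDH3, SDH4, NDE1, COR1, QCR2 and ATP2 kept their call in every fit that left out 1 course. The 37 °C wild type has 1 course, so its spread is assumed to be that of the other groups. From early to late in the 37 °C course limma called 0 members, beside 0.734% of all genes called higher and 0.128% lower (0.863% in all). Of the 36 changes 27 lay below 0. The lowest were NDI1 with -0.996 (adjusted p = 0.0728), NDE2 with -0.81 and QCR6 with -0.45, and the highest were CYC1 with 0.16, ATP14 with 0.12 and COX5A with 0.11.

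In cdc14-3 and cdc15-2 most members were highest in the first sample after release from alpha factor. The elutriated 37 °C wild type shared this: 27 of 36 members were highest in its first sample, and 33 were lower in its last. All 36 members were lower in the last sample than in the first in both mutant strains. The highest sample was the first for 24 members in cdc14-3 and 26 in cdc15-2. The TDH1 3′ minus 5′ difference rose over the same courses, from an early mean of 0.61 to a late mean of 1.16 in cdc14-3 and from 1.16 to 2.52 in cdc15-2, and its part in the result was not tested. The mean of the 36 was 13.2 at 0 min and 12.6 at 240 min in cdc14-3, and 13.1 at 0 min and 12.5 at 180 min in cdc15-2. NDI1 had its high values early: in cdc14-3 it was at 11.5 at 12 min, had a median of 9.72 and was lowest at 144 min with 9.39, and in cdc15-2 it was at 10.9 at 0 min, had a median of 9.23 and was lowest at 120 min with 8.98.

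By limma 0 members passed in late minus early change in either strain. In cdc14-3 this stood beside 0.367% of all genes called higher and 0.165% lower (0.532% in all). In cdc15-2 it stood beside 0.0551% higher and 0.0734% lower (0.128% in all). All 36 changes lay below 0 in both strains, with a median of -0.40 in cdc14-3 against 0.05 over all genes and of -0.30 in cdc15-2 against 0.03. The lowest in cdc14-3 were NDI1 with -1.03 (adjusted p = 0.124), NDE2 with -0.99 and ATP3, the gamma subunit of ATP synthase, with -0.65, and the nearest to 0 was CYC1 with -0.14. The lowest in cdc15-2 were NDE2 with -0.72, NDI1 with -0.71 and SDH2 with -0.56, and the nearest to 0 was QCR7 with -0.08. Between these strains the difference in change passed for 0 members by limma, beside 0% of all genes. In late level 0 members passed by limma, beside 0.0918% of all genes called higher and 0.0918% lower (0.184% in all). The largest differences were 0.56 for SDH2 (adjusted p = 0.356), 0.52 for CYT1 and 0.41 for NDI1, with -0.33 for SDH4.

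Compared with the wild type at 37 °C, which was not arrested with alpha factor, late levels were higher for 5 members in cdc14-3, beside 3.84% of all genes called higher and 3.27% lower (7.1% in all), and for 2 members in cdc15-2, beside 1.71% called higher and 2.24% lower (3.95% in all). QCR2 had a late mean of 12.4 in cdc14-3 and 12.2 in cdc15-2 against 11.3 (1.08 ± 0.16, SE, adjusted p = 0.0138, and 0.92 ± 0.16, adjusted p = 0.03). SDH1 had 12.1 and 12.3 against 11.04 (1.03 ± 0.20, adjusted p = 0.0331, and 1.25 ± 0.20, adjusted p = 0.0243). In cdc14-3, SDH2 was also higher by 0.91 ± 0.21 (adjusted p = 0.0462), ATP2 by 0.76 ± 0.15 (adjusted p = 0.0357) and NDE1 by 0.60 ± 0.14 (adjusted p = 0.0489). Every value here is 1 course against 1 course, both comparisons share the 37 °C wild type, and 32 and 29 of 36 differences lay above 0, with medians of 0.28 and 0.19. Without either 30 °C wild-type course 1 was called in cdc14-3 and 0 in cdc15-2, and without either cdc20 course 9 and 5.

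The galactose gene GAL1, which is repressed on glucose, and HAP4 were followed beside the members. GAL1 ended lower than it started in every course: it was at 14.4 in the first sample of cdc14-3 and 11.4 in the last, and 14.4 and 11.8 in cdc15-2. The first and last values were 12.9 and 9.19 in the first cdc20 course, 13.9 and 9.55 in the second. They were 11.5 and 9.70 in the first cyclin mutant course, 11.8 and 9.89 in the second, 10.1 and 8.57 in the first 30 °C wild-type course, 9.34 and 8.38 in the second and 8.51 and 8.10 in the 37 °C wild type. It changed by -2.89 in cdc20 (adjusted p = 0.000739), 2.10 further down than in the 30 °C wild type (adjusted p = 0.0143), while SDH1 to SDH4 rose there. In late level it was above the 37 °C wild type by 3.42 in cdc14-3 and 3.91 in cdc15-2 (adjusted p = 6.51e-05 and 3.32e-05). HAP4 was highest at 62 min (10.8) and 70 min (11.1) in the 30 °C wild type, at 60 min (11.8) and 80 min (11.2) in cdc20, at 12 min (12.3) in cdc14-3 and at 0 min (11.6) in cdc15-2. In late level it was higher than in the 30 °C wild type by 0.64 ± 0.19 in cdc20 (SE, adjusted p = 0.0315) and by 0.93 ± 0.23 in the 37 °C wild type (adjusted p = 0.0128). The part of either in the members' changes was not tested. The high first GAL1 values in cdc20, cdc14-3 and cdc15-2 do not follow the dextrose medium given for these groups. Whether the carbon source changed before or during these courses was not tested.

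**Figure D4:**
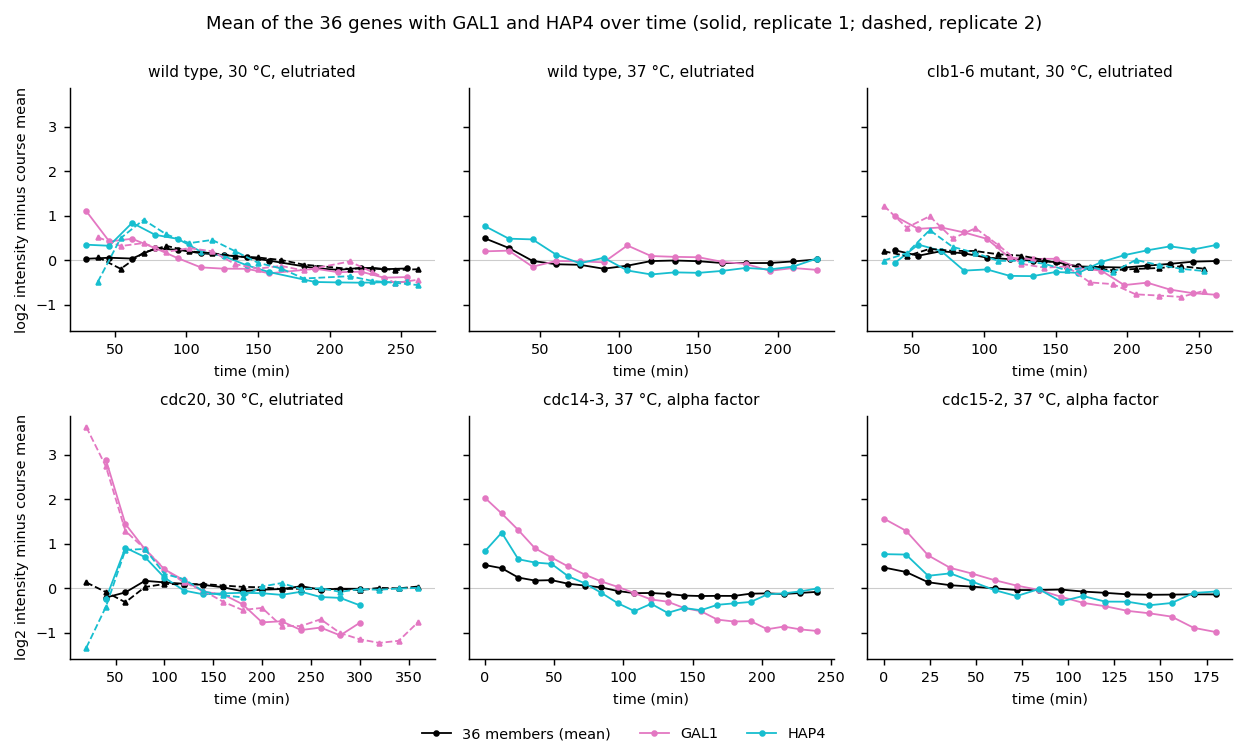
Mean log2 intensity of the 36 members, and GAL1 and HAP4, each minus its course mean, against time in minutes for the 6 groups (solid, replicate 1; dashed, replicate 2). In cdc20, cdc14-3 and cdc15-2 GAL1 starts far above its course mean and spans more than the member mean, whereas in the 37 °C wild type GAL1 runs only from 8.08 to 8.65 before centring.

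Yeast carries alternative isoforms of a complex IV subunit and of cytochrome c: COX5A and CYC1 are the aerobic forms, and COX5B and CYC7 the forms known for low oxygen or stress. The alternative forms were highest in the first sample of all elutriated courses and fell in the 30 °C groups, while COX5A and CYC1 did not pass in any of these changes. In the 30 °C wild type COX5B fell by 2.96 ± 0.27 (SE, adjusted p = 0.000926), from early means of 10.6 and 10.9 to late means of 7.81 and 7.79, and CYC7 by 3.18 ± 0.45 (adjusted p = 0.00433). For COX5B the fall was 2.13 in cyclin mutant cells and 2.03 in cdc20 (adjusted p = 0.00375 and 0.00328), and for CYC7 1.80 and 1.47 (adjusted p = 0.0349 and 0.0414). The changes of COX5A were 0.12 in the 30 °C wild type, -0.43 in the cyclin mutant and -0.16 in cdc20, and those of CYC1 were 0.19, 0.02 and 0.24.

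At 37 °C both alternative forms stayed higher in the wild type, COX5B by 3.22 ± 0.20 (SE, adjusted p = 0.000107) and CYC7 by 3.49 ± 0.24 (adjusted p = 0.000146) in late level, whereas COX5A differed by -0.01 and CYC1 by -0.24 without passing. In cdc14-3 CYC7 was at 12.3 at 12 min, 8.90 at 60 min and 11.1 in the last sample, and in cdc15-2 at 12.4, 8.73 and 10.8 at the matching points. COX5B in cdc14-3 was at 10.97 at 12 min, 8.85 at 60 min and 10.5 in the last sample. Both forms thus dipped at 60 min and came back in both strains, and COX5B was lower in cdc15-2 than in the 37 °C wild type by -1.31 (adjusted p = 0.03).

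**Figure D5:**
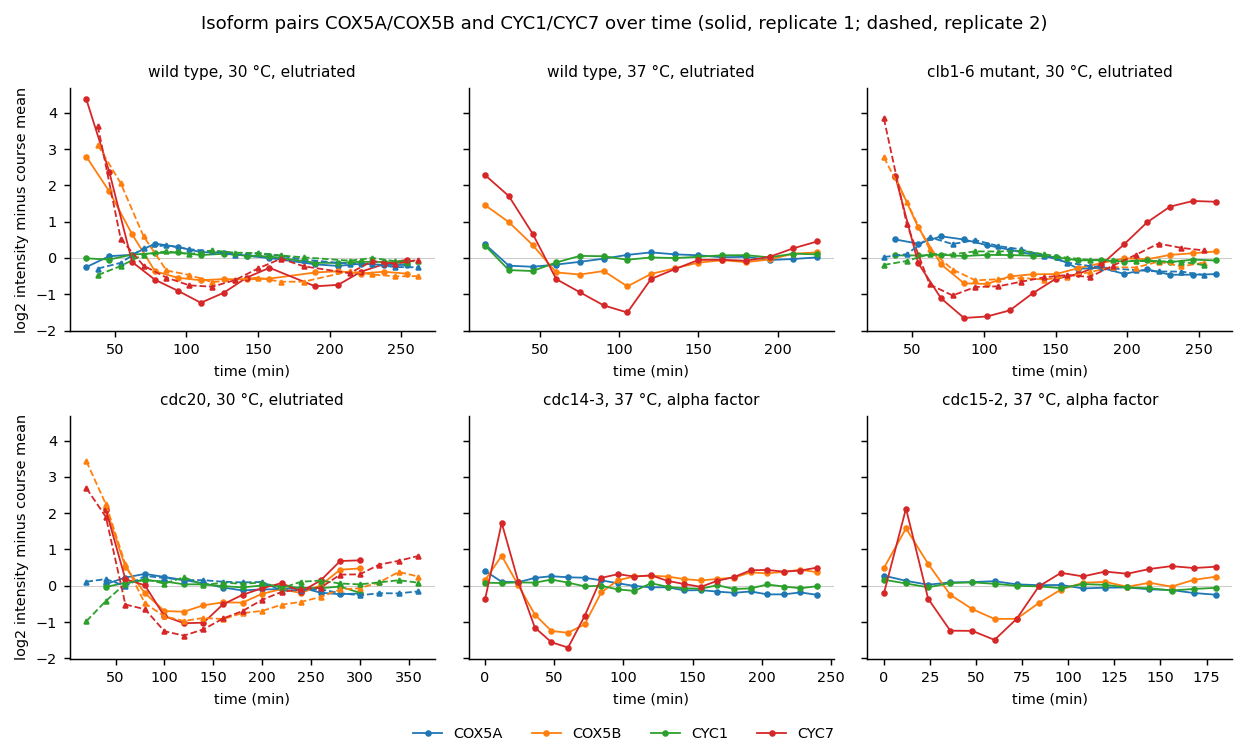
COX5A, COX5B, CYC1 and CYC7 as log2 intensity minus the mean of the gene in that course, against time in minutes for the 6 groups (solid, replicate 1; dashed, replicate 2). COX5B and CYC7 are highest in the first sample of the elutriated courses, and in cdc14-3 and cdc15-2 highest at 12 min and lowest at 60 min; CYC1 starts below its course mean in the second cdc20 course, and COX5A ends below its course mean in the cyclin mutant.

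Genes of the citric acid cycle outside succinate dehydrogenase were read as a list of 11. In cdc20 5 rose and 1 fell from early to late (median 0.60), beside 20.7% of all genes called higher and 21.2% lower. ACO1, aconitase, rose by 1.43, MDH1, malate dehydrogenase, by 1.02 and FUM1, fumarase, by 1.02. CIT1, citrate synthase, rose by 1.00, IDH1, a subunit of isocitrate dehydrogenase, by 0.97, and LSC2, a subunit of succinyl-CoA ligase, fell by 1.10. The difference in change from the 30 °C wild type passed for 4 of the 11, all higher in cdc20, beside 7.27% of all genes called higher: CIT1 with 1.67 ± 0.30 (SE, adjusted p = 0.0232), FUM1 with 1.00 ± 0.17 (adjusted p = 0.0227), IDH1 with 0.90 ± 0.22 (adjusted p = 0.0441) and LSC1 with 0.78 ± 0.16 (adjusted p = 0.0279). The list's median difference was 0.78 against -0.03 over all genes. In the 30 °C wild type 1 of the 11 rose and 4 fell, beside 20.3% and 18.8% of all genes, and in the cyclin mutant 2 rose, beside 12%. In late level 3 were higher and 1 lower in the 37 °C wild type than at 30 °C, beside 29.1% and 22.3%, and 2 were higher in cdc14-3 than in the 37 °C wild type, beside 3.84%.

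Further lists around the pathway gave counts, to be read beside the shares of all genes called higher and lower in the same comparison. These shares were 20.7% and 21.2% for the change in cdc20, 20.3% and 18.8% for that in the 30 °C wild type and 12% and 11.5% for that in the cyclin mutant. For late level against the 30 °C wild type they were 26% and 16.3% in cdc20, 29.1% and 22.3% in the 37 °C wild type and 8.72% and 6.63% in the cyclin mutant, and for the difference in change of cdc20 7.27% and 8.48%. Of 29 assembly factors, proteins that build the complexes without staying in them, 13 rose and 5 fell in cdc20. In late level 16 were higher and 1 lower in cdc20 than in the 30 °C wild type, and 20 were higher and 1 lower in the wild type at 37 °C than at 30 °C (median 0.87). Of 3 inner-membrane carriers 2 rose in cdc20, among them the phosphate carrier MIR1 by 1.66 (adjusted p = 0.00177), 0.95 more than in the 30 °C wild type (adjusted p = 0.0483). Of 6 further ATP synthase subunits and inhibitors 2 were higher in late level at 37 °C than at 30 °C, the stabilizing factors STF1 by 2.37 and STF2 by 3.30 (adjusted p = 0.00012 and 0.000182). Of 5 HAP regulators 1 rose and 1 fell in cdc20, and HAP1, a heme-responsive activator, was lower in late level than in the 30 °C wild type by -1.16 in the cyclin mutant and -1.11 in cdc20 (adjusted p = 0.0021 and 0.00143). Of 11 other glucose-repressed genes 1 rose and 6 fell in the 30 °C wild type, and 3 were called higher in cdc20 in the difference in change. Of 5 galactose genes 1 rose and 4 fell in cdc20. Of 10 stress genes 10 fell in the 30 °C wild type (median -2.94) and 5 each in the cyclin mutant and cdc20, and 9 were higher and 1 lower in late level in the wild type at 37 °C than at 30 °C.

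Members of a complex had higher correlations with each other than with members of other complexes. Over the 142 arrays, with each gene centred on its course, the median Pearson correlation was 0.712 for 128 pairs in the same complex and 0.457 for 502 pairs in different complexes, as a description over arrays that share cultures. The member most like the mean of the other members was ATP3 (r = 0.86), followed by CYT1, cytochrome c1 (0.848), and RIP1 (0.846), and the least like it were SDH1 (0.14), SDH4 (0.306) and CYC1 (0.34). For the spread over the 36 members, each was instead centred on its mean over all 142 arrays, so differences in level between groups remain in it. It was widest in the first samples or at the succinate dehydrogenase low, with SDs of 0.772 and 0.722 at 60 min in cdc20. The spread was narrowest later, with 0.156 at 240 min and 0.138 at 220 min in the cdc20 courses.

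Outside the 36, the genes whose course followed the mean of the members most closely over the 142 arrays were INH1, an inhibitor of ATP hydrolysis by ATP synthase (r = 0.774), HYM1, a component of a morphogenesis pathway (0.736), and TIM11, a subunit of dimeric ATP synthase (0.714). The rest of the first 10 were MAF1 (0.682), CPR2 (0.669), GAL7 (0.668), FUS2 (0.663), YMR181C (0.661), HEL1 (0.65) and BOP3 (0.648). INH1 was the only one of the 10 with a correlation of at least 0.8 in each of the 9 courses, and GAL7 ranged from -0.17 to 0.95 between courses.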

How the data were processed

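Expression was measured on one-colour arrays with biotin-labelled RNA, and the deposited series table holds 1 intensity per probe set and array on a linear scale, from 22.2 to 35171. Per the submitters' processing notes affy was used; the version is not given in the sources used here, nor are the probe summary and the normalization. The deposited intensity values were not yet logged, against what the plan assumed, so log2 was taken with a pseudocount of 0. Of 5900 probe sets, 184 are controls and 218 had no gene name; 5498 named ones gave 5449 genes, with the probe set of highest mean kept for 47 genes with several. Values of the second 30 °C wild-type course were moved up 1 row. The mitochondrially encoded subunits were not analysed here.

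Computation used R 4.3.3 with limma 3.58.1 and splines 4.3.3, and matplotlib 3.10.9 for plots, with Benjamini-Hochberg adjustment over 5449 genes. Groups came from the labels. Tests were a spline F-test per group and a fit over 9 courses with 6 group means (late minus early change, late level, difference in change), checked on simulated data. Alternatives were scaling, pseudocount, filter, windows, range, spline, a left-out course and the replicate number as a block. All members may be named; values by course are given for the largest and smallest changes. Array number limits the precision. The members and lists were chosen with earlier results of these data known.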

Additional observations from a re-analysis of the deposited data

Results flagged for a closer look

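For 4 members the late minus early change in cdc20 differed from that in the 30 °C wild type by a test of the difference itself (limma, 2 courses in each group). This stood beside 7.27% of all genes called higher and 8.48% called lower (15.7% in all). The differences in log2 units were 1.19 for SDH1, 1.27 for SDH2, 1.34 for SDH3 and 1.2 for NDI1. SDH1 was higher late than early in all 4 courses, by 0.20 and 0.90 in the 30 °C wild type and by 1.93 and 1.54 in cdc20. NDI1 was lower late in both 30 °C wild-type courses, by -0.57 and -0.08, and higher late in both cdc20 courses, by 0.94 and 0.82. None of the 4 calls held in every fit that left out 1 course.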

How the results depend on the processing

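Results for single members were counted once in each alternative setting, so the same result enters many times. Of these entries, 1010 kept their direction and side of the threshold, 282 kept the direction without passing, and 13 reversed. Members that passed only in an alternative, such as SDH4 in the difference in change of cdc20, are not among them. The 13 all arose with the second 30 °C wild-type course as deposited, where each value belongs to another gene: in the change of the 30 °C wild type QCR10 gave 0.63 and ATP2 -0.043, in cyclin mutant minus 30 °C wild type RIP1 0.93, COX4 0.11 and COX5A 1.37. In cdc20 minus 30 °C wild type COR1 gave 1.73 and QCR2 1.35, and in the 37 °C minus the 30 °C wild type NDE1 1.12, COR1 1.38, QCR2 0.83, RIP1 1.02, ATP2 0.87 and ATP3 0.33. In that setting 6 members were called over time in the 30 °C wild type, 2 in the change of cdc20, and 0 in the changes of the 30 °C wild type and the cyclin mutant, in the late level of each group against another and in the difference in change. The member medians became 0.024 (change, 30 °C wild type), 1.17, 1.58 and 1.24 (late level of cyclin mutant, cdc20 and 37 °C wild type against 30 °C wild type), and -0.26 and -0.087 (difference in change of cyclin mutant and cdc20).

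For change over time a minimum range of 0.58 gave 21, 18, 18, 18, 21 and 21 members in the 30 °C wild type, 37 °C wild type, cyclin mutant, cdc20, cdc14-3 and cdc15-2, whereas no minimum gave 36, 27, 36, 34, 36 and 34. Leaving out samples before 30 min gave 3, 0 and 0 in the 37 °C wild type, cdc14-3 and cdc15-2. Leaving out 1 course gave 2 to 3, 3 to 5 and 8 to 9 in the 30 °C wild type, cyclin mutant and cdc20. Median centring gave 13 in the 37 °C wild type, and in course values medians of -0.26 (change, 37 °C), 0.084 (change, cdc20), 0.096 and -0.088 (late level, cdc20 and 37 °C against 30 °C wild type), and 0.043 with 7 calls in the difference in change of cdc20. Quantile normalization gave 5 calls in late level of the cyclin mutant and a median of -0.22 in its difference in change. A pseudocount of 50 gave 5 calls in late level of the cyclin mutant and 4 in cdc15-2 minus 37 °C wild type, and leaving out the dimmest 25% of genes gave 5, 4 and, in the difference in change of cdc20, 7.

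Late samples to 180 min gave 8 and 9 calls in the change of the 30 °C wild type and cdc20 (medians 0.10 and 0.13), a median of -0.14 in that of the cyclin mutant and 1 call in its late level (median -0.18). They gave a median of -0.13 in late level at 37 °C against 30 °C, 2 calls in cdc14-3 minus 37 °C wild type, a median of -0.29 in the difference in change of the cyclin mutant and 0 calls in that of cdc20. Late samples to 260 min, chosen after seeing the data, gave a median of 0.041 in the change of cdc20, 13 calls in its late level and 2 in its difference. The first 3 samples as early values gave 3, 4 and 2 calls in the 37 °C wild type, cdc14-3 and cdc15-2 (medians -0.30, -0.52 and -0.43), and medians of -0.25 in the cyclin mutant and 0.019 in the difference of cdc20. Early samples from 30 to 60 min gave medians of -0.064, -0.30 and -0.15 in the 37 °C wild type, cdc14-3 and cdc15-2, and 11 calls in the difference of cdc20. The sample at 54 to 62 min, also chosen after seeing the data, gave medians of 0.093, -0.25, -0.11 and -0.26 in the 37 °C wild type, cdc14-3, cdc15-2 and the cyclin mutant, -0.29 in the cyclin mutant's difference, and 9 calls in that of cdc20. Leaving out 1 course gave 0 to 4 calls in the change of the 30 °C wild type (medians -0.083 to 0.024), 1 to 6 in the cyclin mutant, 5 to 15 in cdc20. It gave 0 to 5, 2 to 12 and 6 to 14 in late level of the cyclin mutant, cdc20 and the 37 °C wild type against the 30 °C wild type, 1 to 9 and 0 to 5 in cdc14-3 and cdc15-2 against the 37 °C wild type. It gave 0 to 4 in the difference of cdc20, with medians of -0.27 to -0.13 and -0.12 to 0.041 in the differences of the cyclin mutant and cdc20. Except for the displaced course and where fewer samples or genes were used by construction, the cause was not tested. The counts in these settings stand without the share of all genes called. They therefore do not tell a gain or loss among the members from one among all genes.

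Replicate numbers are shared between groups of 2 courses, and nothing in the labels says that a number marks a shared batch. Deviations of same-numbered courses correlated at -0.03 to 0.08 in late level and at -0.13, -0.03 and, between the cyclin mutant and cdc20, 0.57 in change. The source of the 0.57 was not tested, and the main fits used no pairing. With the replicate number as a block the fit called 3, 8, 0 and 4 members in late level of the cyclin mutant and of cdc20 and in their differences in change, with medians of -0.10, 0.18, -0.17 and -0.03. The members called were not the same: in the difference of cdc20 SDH1 no longer passed (adjusted p = 0.0553, limma) and NDE2 did (adjusted p = 0.0193). In late level COX4 gave way to QCR10 in the cyclin mutant, and QCR2 and ATP4 to SDH2 and QCR10 in cdc20.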
